A study of Mus musculus with 12 samples.

Results

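The 10 genes described here, of pluripotency and of early germ cell identity, were followed in gonocytes of newborn mice with and without Morc1. They are Lin28a, Pou5f1, Nanog, Sox2, Utf1, Dppa3, Dppa4, Prdm1, Prdm14 and Tfap2c, named by symbol as 10 of the 35666 genes in the deposited table, and all 10 passed the filter on low values. Gonocytes are the male germ cells that precede spermatogonia, and here they were isolated from the testes of Mvh-Venus transgenic mice, in which the germ cell gene Mvh (Ddx4) marks the cells with a fluorescent protein. The heterozygous group (het, Morc1 +/-) and the knockout group (KO, Morc1 -/-) each had 3 libraries from postnatal day 0 (P0), and both groups carry the Mvh-Venus transgene. The labels do not describe the Morc1 allele, the strain or whether each library came from its own animal, so p-values measure only the spread between these libraries, which may be technical. Where 3 values are given for a genotype, they are those of replicates 1, 2 and 3 in that order. The study also lists samples from postnatal day 3, which were not analysed here. MORC1 is a germ cell ATPase, and the series asks how its loss affects the chromatin and transcripts of gonocytes.

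Primordial germ cells arise from the epiblast under PRDM1, PRDM14 and TFAP2C, and they express the core pluripotency factors OCT4 (from Pou5f1), NANOG and SOX2. LIN28A is an RNA-binding protein that blocks the maturation of let-7 microRNAs and is known from pluripotent cells, primordial germ cells and undifferentiated spermatogonia. In the mouse testis some of these genes are lowered, at different times, as germ cells move from the fetal state to the spermatogonial state.

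Depth was 28363683 to 32816861 recovered reads per library. Libraries did not group by genotype alone: in a chi-square over genes, both het replicates 1 and 2 resembled KO replicate 1 more than the other KO libraries did, and the library most like KO replicate 2 was het replicate 3. Morc1 itself had 7248, 7485 and 4126 normalized counts in het and 1360.5, 1343 and 1794 in KO, lower in every KO library. Most germ cell markers were high in all libraries, and Ddx4 had 17605 to 31038 normalized counts in het and 20303.5 to 28977 in KO. The marker Nanos2 was low, with 16.4 to 20.5 in het and 16.7 to 47.5 in KO. Summed over 10 germ cell markers the levels were 133967 to 206796 in het and 138887 to 208215 in KO, lowest in het replicate 3 and KO replicate 2. Each of 24 markers of somatic testis cells had reads in every library. The 9 Sertoli cell markers summed to 18028 to 38434 in het and 12922 to 18584 in KO, all 9 with log2 fold changes below 0. Of these, 4 (Sox9, Amh, Clu and Dhh) had unadjusted limma p-values under 0.05, against 2.44% of all genes for lower values in KO. Their limma adjusted p-values ran from 0.25 to 0.58. The 5 Leydig cell markers summed to 776, 1079 and 24921 in het and to 509.6 to 1075 in KO. Of all 24 somatic markers, 17 had log2 fold changes below 0 and 7 above. The 2 myoid markers summed to 1208 to 1220 in het and 1222 to 1766 in KO. Their log2 fold changes were 0.27 for Acta2 (limma unadjusted p 0.26) and 0.08 for Myh11 (limma unadjusted p 0.77), and for Myh11 the genotypes overlapped. In bulk libraries fewer cells of a type and less RNA per cell cannot be told apart, and the part of these somatic levels in the values below was not tested.

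None of the 10 genes passed the test between genotypes, and Lin28a was the one whose libraries did not overlap. Lin28a had 1.72 times as many normalized counts (reads divided by one size factor per library) in KO as in het. With limma, 0 of 10 had an adjusted p under 0.05, against 0.473% of the 26005 genes tested (0.431% higher and 0.0423% lower in KO), and edgeR and DESeq2 on recovered reads also called 0. At an unadjusted limma p under 0.05 the count was 1 of 10, against 6.86% of all genes (4.42% higher and 2.44% lower in KO). Groups without overlap were seen for 1 of 10, against 12.7% of all genes (7.17% higher and 5.57% lower in KO), so both shares were near the background. The log2 fold changes had a median of 0.15, with 7 above 0 and 3 below, where all tested genes had a median of -0.02 and 48.4% lay above 0.

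Sequence upstream of the start is shown for Lin28a, with the lowest p of the 10, and for Nanog, with the second lowest, both from the RefSeq promoter table (GRCm38.p6). The stretches end just before the first annotated base of each gene, run 5′ to 3′ on the strand of the gene, and lie at chr4:134018842-134019066 (minus strand) and chr6:122707239-122707488 (plus strand). Capitals mark TTTGCAT, the core of the octamer that OCT4 recognises, and ACAATG, a SOX core, each searched on both strands.
Lin28a: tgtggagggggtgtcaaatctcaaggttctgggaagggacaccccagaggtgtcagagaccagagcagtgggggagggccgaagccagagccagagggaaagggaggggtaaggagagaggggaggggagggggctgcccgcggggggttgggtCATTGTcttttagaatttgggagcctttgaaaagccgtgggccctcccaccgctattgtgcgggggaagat
Nanog: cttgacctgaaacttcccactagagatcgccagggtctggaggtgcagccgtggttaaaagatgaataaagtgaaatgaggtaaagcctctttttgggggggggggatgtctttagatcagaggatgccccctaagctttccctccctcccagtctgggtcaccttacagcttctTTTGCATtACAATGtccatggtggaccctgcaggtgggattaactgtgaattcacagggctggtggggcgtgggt

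In the Nanog stretch the octamer core (75 to 69 bases before the start) and the SOX core (67 to 62 bases) stand 1 base apart. The Lin28a stretch holds the SOX core in reverse, as CATTGT, 71 to 66 bases before the start, and no octamer core. Of all 32544 RefSeq windows of 300 bases, 4.65% hold the octamer core and 12.4% the SOX core. Windows of 6 members were in that table (Lin28a, Pou5f1, Nanog, Sox2, Utf1 and Prdm1). Among them Nanog and Sox2 held the octamer core, and Lin28a, Pou5f1 and Nanog the SOX core. These are matches of letters and not measured binding.

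Lin28a (ENSMUSG00000050966, minus strand of chromosome 4 from 134003330 to 134018841, GRCm38) encodes the let-7 antagonist. It had 702, 1031 and 616 normalized counts in het and 1253, 1594 and 1183 in KO. Every KO library lay above every het library, with het replicate 2 closest to the KO range. The means were 783 ± 219 in het and 1343 ± 220.3 in KO (SD, n = 3). The limma log2 fold change was 0.80 (SE 0.26, 95% confidence interval 0.22 to 1.38), with an unadjusted p of 0.0118 and an adjusted p of 0.442. Its estimate stayed above 0 in each of 20 alternative fits, between 0.52 and 1.02. Adjusted p-values ran from 0.211 (DESeq2) to 1.00 (limma with germ cell marker scaling). Because the genotypes do not overlap, leaving out libraries could not turn the sign of Lin28a. The limma fits with another filter, without trend or with a replicate block keep the same estimate by construction. Scaling the libraries to 6 germ cell markers moved the median log2 fold change of all genes by 0.11, and that of Lin28a to 0.91 (limma adjusted p 1.00). Without het replicate 3 and KO replicate 2, an alternative chosen after the data were seen, it was 0.52 (limma unadjusted p 0.0733, adjusted p 0.531). These are the lowest and the highest library of Lin28a, so leaving out both had to lower its estimate. Gm13061, a transcript on the opposite strand, overlaps Lin28a and had means of 17.0 and 15.2 normalized counts.

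**Figure D1:**
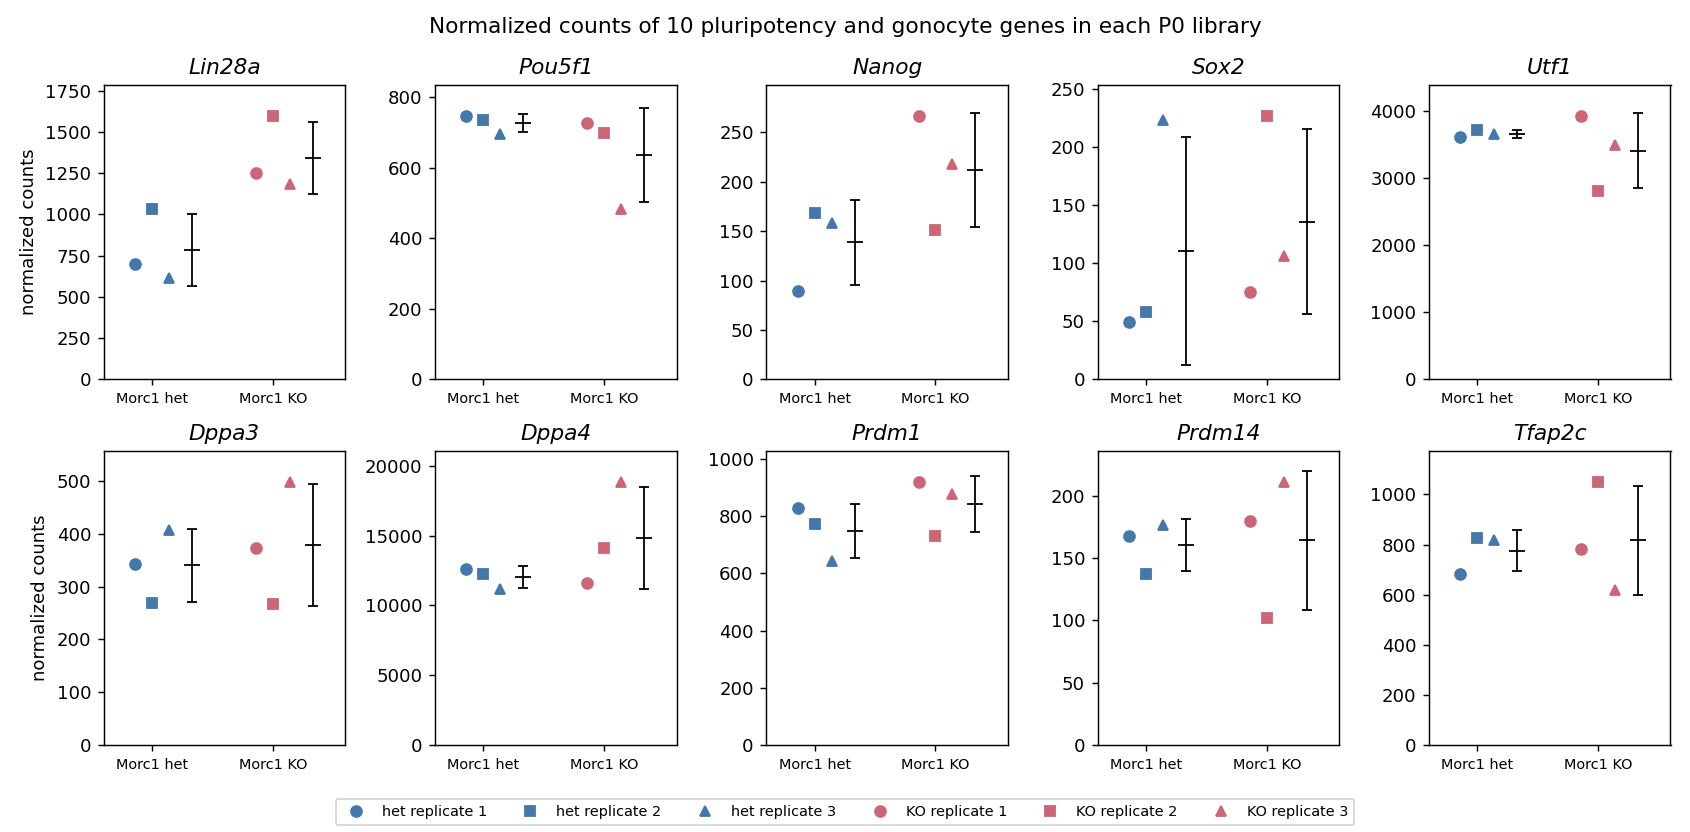
Normalized counts (y axes, from 0) of each of the 10 genes in the 3 het libraries (blue) and the 3 KO libraries (red) at P0, with mean and SD in black. In the Lin28a panel the KO libraries lie at 1183 to 1594, all above the het libraries at 616 to 1031, and in the other 9 panels the genotypes overlap.

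Lin28b, the paralog of Lin28a whose product also blocks let-7 maturation, was higher in every KO library too. Its levels were 1351, 1192 and 741 normalized counts in het and 1824, 1387 and 1395 in KO. The limma log2 fold change was 0.52 (95% confidence interval -0.08 to 1.13, unadjusted p 0.0841, adjusted p 0.806), so the interval includes no change. Within libraries, the ratio of Lin28a to Lin28b was 0.519, 0.865 and 0.832 in het and 0.687, 1.15 and 0.848 in KO. This ratio does not depend on how libraries are scaled, and its genotypes overlapped. The log2 ratio was higher in KO by 0.28 (exact two-sided permutation p = 0.5, where 0.1 is the smallest the design allows). With this number of libraries that test cannot reach a p of 0.05, so it does not show whether the paralogs differ. Without 1 library the difference ran from 0.045 to 0.46.

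**Figure D2:**
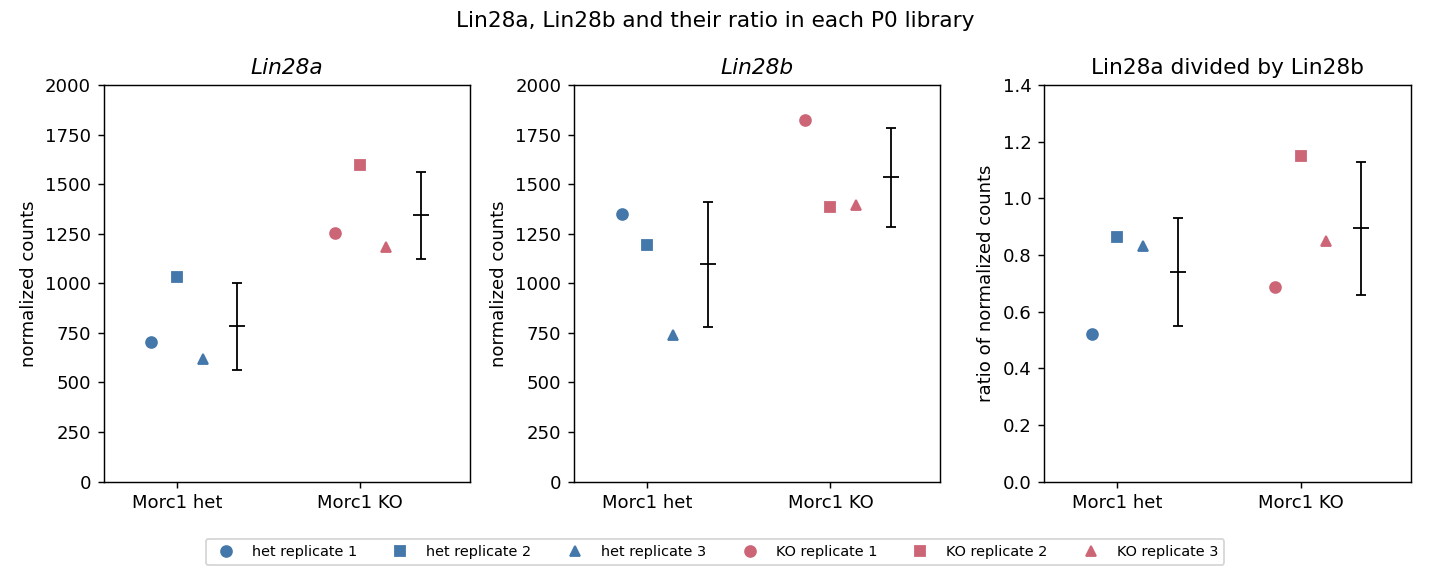
Normalized counts of Lin28a and Lin28b and their ratio within each library (y axes, from 0) for het (blue) and KO (red), with mean and SD in black. Both genes are higher in every KO library, while the ratio overlaps between genotypes (0.519 to 0.865 in het and 0.687 to 1.15 in KO).

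The other genes of the LIN28 and let-7 pathway were read from a list of 20 that includes Lin28b. It holds the uridylyltransferases Tut4 and Tut7, the nuclease Dis3l2 that degrades uridylated pre-let-7, and known let-7 targets such as Hmga2, Igf2bp1, Trim71, Nras and Ccnd1. With limma 0 of 20 passed, against 0.473% of all genes, and edgeR and DESeq2 called 0. At an unadjusted limma p under 0.05 the count was 0 of 20, against 6.86% of all genes. The median log2 fold change was 0.06, with 12 above 0 and 8 below. Only Lin28b had genotypes without overlap, 1 of 20 against 12.7% of all genes. Igf2bp1, an RNA-binding protein gene, had 8695, 10515 and 6323 normalized counts in het and 8215, 11916 and 11659 in KO, with a log2 fold change of 0.33. Hmga2, encoding a chromatin protein, ran from 122 to 144 in het and from 92.0 to 209.8 in KO, with a log2 fold change of 0.02. For both genes the genotypes overlapped.

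None of the 3 core factors passed the test, and the intervals of all 3 include 0. Pou5f1 (ENSMUSG00000024406, plus strand of chromosome 17 from 35506018 to 35510772), encoding OCT4, had 746, 735 and 697 normalized counts in het and 726, 699.5 and 482 in KO. The first 5 of these 6 values lie close together and KO replicate 3 is low. Its means were 726 ± 25.4 in het and 636 ± 134 in KO (SD, n = 3), and the limma log2 fold change was -0.21 (95% confidence interval -0.76 to 0.34, adjusted p 0.929), and -0.026 without KO replicate 3. Nanog (ENSMUSG00000012396, plus strand of chromosome 6 from 122707489 to 122714633), a homeobox factor of the same network, had 89.6, 168 and 158 in het and 266, 151 and 218.5 in KO. KO replicates 1 and 3 were above all het libraries, and KO replicate 2 lay within the het range. The Nanog means were 139 ± 42.7 and 212 ± 57.9 (SD, n = 3), with a limma log2 fold change of 0.62 (95% confidence interval -0.18 to 1.43, unadjusted p 0.116, adjusted p 0.826). Without het replicate 1 the Nanog value was 0.34, and without KO replicate 2 it was 0.85.

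Sox2 (ENSMUSG00000074637, plus strand of chromosome 3 from 34650405 to 34652461), the partner of OCT4 in pluripotent cells, varied most within genotypes. It had 49.6, 58.0 and 223 normalized counts in het and 75.2, 226 and 106 in KO, so that 1 library of each genotype stood at about the same high level. The SD was 88.8% of the mean in het and 58.8% in KO, against 1.55% to 30.8% and 11.6% to 34.0% for the other 9 genes. Its limma log2 fold change of 0.49 had an interval from -0.86 to 1.83 (adjusted p 0.934). It was 0.045 without KO replicate 2 and 1.17 without het replicate 3 (limma unadjusted p 0.0445, adjusted p 0.690). Sox2 lies within Sox2ot, a transcript on the same strand with means of 157 and 177 normalized counts, and how reads in both were counted is not given in the sources used here. The Nanog transcript shares stretches of at least 200 bases at 90% identity or more with 41 other genes, each covering at most 11.1% of it.

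None of the 3 factors of primordial germ cell specification passed the test. Prdm1 (ENSMUSG00000038151, minus strand of chromosome 10 from 44437177 to 44528501), encoding the repressor BLIMP1, had 827, 773 and 643 normalized counts in het and 917, 732 and 877 in KO. Prdm14 (ENSMUSG00000042414, minus strand of chromosome 1 from 13113457 to 13127163), which acts beside it, had 168, 137 and 177 in het and 180.1, 102 and 211 in KO. Tfap2c (ENSMUSG00000028640, plus strand of chromosome 2 from 172549593 to 172558622), encoding AP-2γ, had 682, 825 and 819 in het and 784, 1048 and 617 in KO. In each of the 3 genes the genotypes overlapped, and for Prdm14 and Tfap2c the KO libraries reached beyond the het range on both sides. The limma log2 fold changes were 0.17 for Prdm1, -0.02 for Prdm14 and 0.05 for Tfap2c. Their 95% confidence intervals of -0.34 to 0.69, -0.80 to 0.75 and -0.53 to 0.62 lie within -1 and 1, a 2-fold change in either direction. The sign of Prdm14 changed with the settings and libraries used, and that of Tfap2c only with the libraries used.

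Utf1, Dppa3 and Dppa4 encode chromatin-associated proteins of pluripotent and germ cells. Utf1 (ENSMUSG00000047751, plus strand of chromosome 7 from 139943789 to 139945112) had 3611, 3724 and 3660.3 normalized counts in het and 3924, 2815 and 3491 in KO. The het libraries lay within the range of the KO libraries, and the limma log2 fold change was -0.12 (95% confidence interval -0.57 to 0.33, adjusted p 0.951). Dppa3 (ENSMUSG00000046323, plus strand of chromosome 6 from 122626410 to 122630272), also known as Stella, which protects DNA methylation in the zygote, had 343, 269 and 408 in het and 372, 268 and 497 in KO. Its log2 fold change was 0.13 (95% confidence interval -0.55 to 0.82, limma adjusted p 0.966), and 2 pseudogenes align to 54.1% and 54.0% of its transcript at over 90% identity.

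Dppa4 (ENSMUSG00000058550, plus strand of chromosome 16 from 48283733 to 48294237) was the most abundant of the 10 genes. It had 12629, 12282 and 11151.5 normalized counts in het and 11627, 14085 and 18799 in KO. KO replicates 2 and 3 were above the het range and KO replicate 1 was within it. The means were 12021 ± 773 and 14837 ± 3644.5 (SD, n = 3), with a limma log2 fold change of 0.28 (95% confidence interval -0.20 to 0.75, adjusted p 0.891), and 0.092 without KO replicate 3. Dppa4 ends 137 kb before the start of Morc1, and Dppa2, its binding partner, ends 112 kb before it, so both are close neighbours of the mutated gene. Dppa2 had 674, 578 and 512 in het and 564, 1081 and 839.7 in KO, with a log2 fold change of 0.45 (95% confidence interval -0.18 to 1.09, limma adjusted p 0.849). What DNA flanks the Morc1 allele is not given in the sources used here, and an effect of that DNA cannot be told apart from that of genotype. The pseudogenes Gm14058 and Gm5501 match 36.0% of the Dppa4 transcript at 99.4% and 96.8% identity, with means of 357 and 47.9 normalized counts in het, so the share of reads from each is uncertain.

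**Figure D3:**
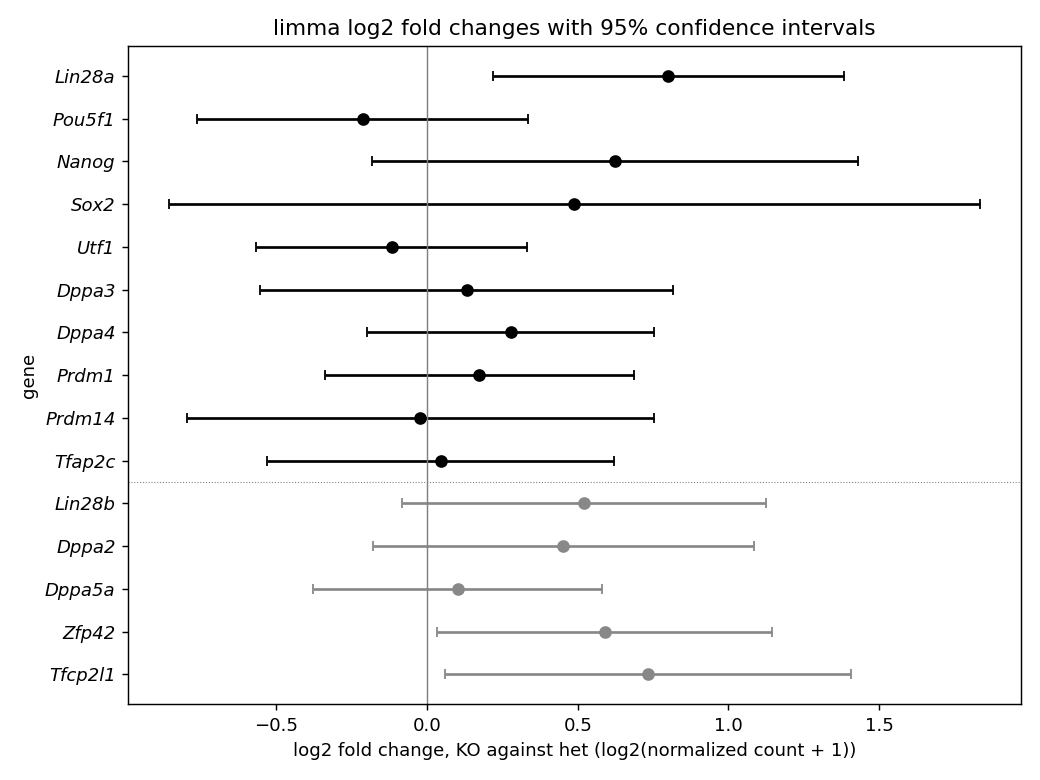
limma log2 fold changes of KO against het (x axis, on log2(normalized count + 1)) with 95% confidence intervals for the 10 genes (black) and for 5 genes of the wider lists (grey, below the dotted line). Among the 10 the interval of Lin28a, 0.22 to 1.38, lies above 0 before adjustment for 26005 genes, and the other 9 include 0.

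Per kilobase of exon the genes spanned a wide range of levels in het. Dppa4 stood at 7233 ± 465 normalized counts per kb and Utf1 at 2987 ± 46.3 (SD, n = 3), above 99.7% and 98.1% of tested genes over all 6 libraries. Dppa3 (381 ± 78.1) and Pou5f1 (323 ± 11.3) followed, and their het libraries overlapped. Tfap2c (211 ± 22.0) and Lin28a (196 ± 54.7) likewise overlapped, below Pou5f1 and above Prdm1 (134 ± 17.0). Prdm14 (62.6 ± 8.07), Nanog (61.8 ± 19.0) and Sox2 (53.6 ± 47.6) came last, and neighbours among these 3 overlapped. In KO the Lin28a level per kb was 336 ± 55.1, beside 283 ± 59.6 for Pou5f1 and 425 ± 129 for Dppa3 (SD, n = 3).

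**Figure D4:**
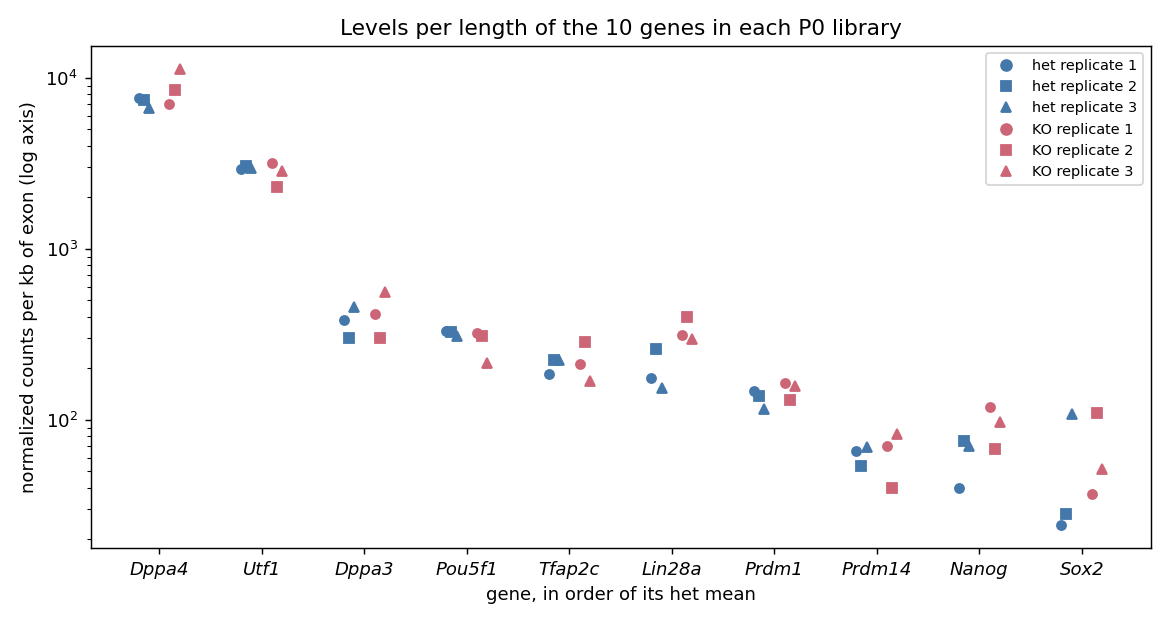
Normalized counts per kb of exon (y axis, log scale) of the 10 genes in each het (blue) and KO (red) library, in order of the het mean. Dppa4 and Utf1 lie above 2000 in all libraries, and Prdm14, Nanog and Sox2 lie lowest.

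The 10 genes peaked in different libraries. The highest value was in KO replicate 1 for 3 genes (Nanog, Utf1 and Prdm1), in KO replicate 2 for 3 (Lin28a, Sox2 and Tfap2c), in KO replicate 3 for 3 (Dppa3, Dppa4 and Prdm14) and in het replicate 1 for Pou5f1. Thus 9 of 10 peaked in a KO library, against 56.9% of all tested genes, but in KO libraries that differed from gene to gene. Among all pairs of the 10 genes, the Pearson r values of largest size over the 6 libraries were picked out. They were 0.905 for Dppa3 and Prdm14, -0.898 for Pou5f1 and Dppa4 and -0.888 for Prdm14 and Tfap2c. These are a description over 6 shared libraries, as is the r of Lin28a with the other 9 genes, which ran from -0.51 (Utf1) to 0.52 (Nanog). For Utf1 and Pou5f1 the het SD was 1.55% and 3.50% of the mean, and the KO SD 16.4% and 21.1%. A larger relative spread in KO was found for 6 of 10 genes and for 61.4% of all genes, so the share was near the background.

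**Figure D5:**
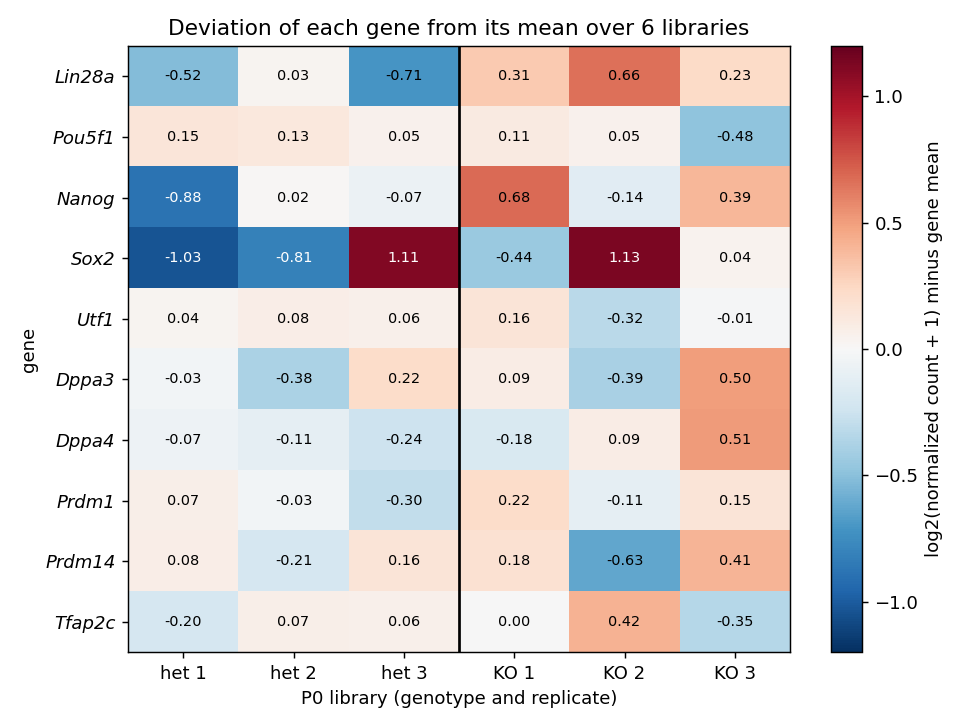
Deviation of log2(normalized count + 1) from the gene's mean over the 6 libraries (color, with the value in each cell) for the 10 genes (rows) in the het and KO libraries (columns). Lin28a is the row with its 3 highest values in the 3 KO columns, and Sox2 is high in het replicate 3 and KO replicate 2.

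A wider list of 25 pluripotency and primordial germ cell genes was read in the same way. With limma, edgeR and DESeq2 0 of 25 passed, and 2 had an unadjusted limma p under 0.05 (8%, against 6.86% of all genes). The median log2 fold change was 0.16, with 16 above 0 (64%, against 48.4% of all genes) and 9 below. Genotypes did not overlap for 2 of 25, Zfp42 and Tdgf1, which is 8% against 12.7% of all genes. Zfp42, encoding the pluripotency marker REX1, had 529, 480.0 and 653 normalized counts in het and 726, 765 and 1022 in KO, higher in every KO library. Its log2 fold change was 0.59 (limma unadjusted p 0.0397, adjusted p 0.690). Tdgf1, encoding the NODAL co-receptor CRIPTO, had 135, 141 and 148 in het and 129, 126 and 109 in KO, lower in every KO library, with a log2 fold change of -0.23 (limma unadjusted p 0.464, adjusted p 0.939). Tfcp2l1, a factor of naive pluripotency, had 963, 811 and 563 in het and 1502, 868 and 1554 in KO, where KO replicate 2 fell within the het range. Its log2 fold change was 0.73 (limma unadjusted p 0.0358, adjusted p 0.676). Dppa5a, a marker of pluripotent and primordial germ cells, had a log2 fold change of 0.10 (95% confidence interval -0.38 to 0.58).

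The genes with the profile most like that of Lin28a over the 6 libraries were sought among 14060 protein-coding genes with a mean of at least 100. They were Snapc3 (Pearson r 0.974), Etv6 (0.974), Trmt61a (0.970), Sv2b (0.969) and Isg20l2 (0.967), and their log2 fold changes ran from 0.27 to 0.86. In all, 72 genes, or 0.512%, had a correlation above 0.9. The points are 6 libraries that differ by genotype, so these correlations are a description only.

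Copies of transposable elements (TEs) near the 10 genes were examined, since many TE copies differ between these genotypes. The deposited TE table lists 33 copies within 10 kb of 8 of the genes and none there for Sox2 and Tfap2c. Of these, 14 overlap a gene body, 10 of them within Prdm1. Only 6 copies had a mean of at least 10 normalized counts, and 0 of the 6 passed with limma (0 with an unadjusted p under 0.05), against 16.3% of the 49781 copies tested. The lowest p was that of a copy of 551 bp within Prdm1 (minus strand of chromosome 10 from 44518977 to 44519528). It had 22.1, 22.4 and 12.5 normalized counts in het and 7.63, 4.64 and 8.55 in KO, with a log2 fold change of -1.32 (limma adjusted p 0.251). The next was a copy of 212 bp located 7082 bp from Utf1 (chromosome 7 from 139952194 to 139952406), with a log2 fold change of -0.54 (limma adjusted p 0.571).

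None of the tested copies near Lin28a stood apart between genotypes. The 2 tested copies, at 4327 and 5265 bp from the gene on the side of its 3′ end, had log2 fold changes of -0.03 and 0.03. Another copy lies 4698 bp before its start and had at most 6.73 normalized counts in any library. Within 50 kb of the 10 genes, 2 of 25 tested copies passed. A copy of 2291 bp at 23.4 kb from Pou5f1 (chromosome 17 from 35480336 to 35482627) had 14.8, 7.85 and 11.5 normalized counts in het and 77.3, 44.9 and 85.5 in KO, and it rose by 2.49 on the log2 scale (limma adjusted p 0.00573). A copy of 1000 bp at 23.6 kb from Dppa3 (chromosome 6 from 122601858 to 122602858) had 60.1, 78.5 and 40.3 in het and 25.8, 8.51 and 12.8 in KO, and it fell by 1.94 (limma adjusted p 0.0289). These 2 copies are 8% of the 25, below the share among all copies, and the Pou5f1 and Dppa3 levels themselves overlapped between genotypes.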

How the data were processed

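The gene values are a signal: the authors scaled the read counts of each library by its DESeq2 size factor, as the deposited table is named, and they are called normalized counts here. The TE values are a signal of the same kind in the deposited table, scaled by factors of their own. These were 0.891 to 1.04 in het and 1.05 to 1.29 in KO, against 1.03 to 1.05 and 0.968 to 1.02 for genes. The TE copies within 50 kb and the share over all copies are given with the TE factors only. The submitters' processing notes name cutadapt 1.18, HISAT2 2.1.0, featureCounts 1.5.2, DESeq2 1.26.0 and the build GRCm38 (mm10), with no role for each; strand handling and the treatment of reads with several matches are not given in the sources used here. In each column 100% of values were whole multiples of one step (tolerance 0.01 of a step), which gave the recovered reads used with edgeR and DESeq2; in the gene table the KO replicate 1 step is close to 1. Of 35666 gene rows, 35560 matched GENCODE M21 (GRCm38), as did all 10 members.

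Tests with limma were run on genes whose mean reached 10, using version 3.58.1 (R 4.3.3; trend, two-sided) and log2(normalized count + 1), and Benjamini-Hochberg adjustment ran over all 26005 genes; this scale understates changes of low genes. TE copies were tested the same way. The groups P0 het and P0 KO (3 libraries each) entered without covariates. Alternatives used other pseudocounts, filters and scalings, edgeR 4.0.16, DESeq2 1.42.0, a replicate block and fewer libraries. Replicates were compared by a chi-square over genes (1 per gene if only sampling differed). Its mean was 10.99 for het replicates 1 and 2, the closest pair of one genotype. All remaining pairs within a genotype reached 70.7 or above. Each pair was above the level of sampling alone, so no library was counted as a repeat. This cannot show whether het replicates 1 and 2 came from separate animals or preparations. Between genotypes, KO replicate 1 was closest to het replicate 2 (23.9) and KO replicate 2 to het replicate 3 (52.2).

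The members and gene lists were chosen with earlier results of these data known. Named genes are the members, list genes with an unadjusted p under 0.05, Lin28b, Dppa2, Dppa5a, the 5 genes most like Lin28a and Morc1; Igf2bp1, Hmga2, Tdgf1, Gm13061, Sox2ot and the TE copies beyond 10 kb were named after their values were seen. TE positions are printed as the table gives them.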

Additional observations from a re-analysis of the deposited data

How the results depend on the processing

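With 3 libraries per genotype, the interval of the log2 fold change includes 0 for 9 of the 10 genes. The number of members called was 0 in each alternative, leaving out libraries included, as were those of the wider pluripotency list and the LIN28 and let-7 list. The number of TE copies called was 0 in each alternative within 10 kb and 2 within 50 kb. The signs of Lin28a, Pou5f1, Nanog, Sox2, Dppa4 and Prdm1 were the same in all 20 alternatives, with values from 0.52 to 1.02 for Lin28a, -0.32 to -0.026 for Pou5f1, 0.34 to 0.97 for Nanog, 0.045 to 1.17 for Sox2, 0.092 to 0.44 for Dppa4 and 0.068 to 0.29 for Prdm1. The lowest of these for Prdm1 was without het replicate 3, and the highest for Dppa4 without KO replicate 1. For Lin28a, whose genotypes do not overlap, leaving out libraries could not turn the sign. For every member the limma fits with another filter, without trend or with the block keep the main estimate by construction. The log2 fold change of Prdm14 turned positive with germ cell marker scaling (0.091), edgeR with TMM (0.032), edgeR with the authors' size factors (0.034) and DESeq2 (0.035). The cause was not tested. Leaving out 1 library, or het replicate 3 and KO replicate 2 together (chosen after the data were seen), gave Prdm14 values from -0.23 to 0.36, Tfap2c values from -0.15 to 0.23, Utf1 values from -0.23 to 0.014 and Dppa3 values from -0.086 to 0.50. The sign turned for Prdm14 without het replicate 1 (0.015), het replicate 3 (0.051) or KO replicate 2 (0.29), and for Tfap2c without het replicate 1 (-0.044) or KO replicate 2 (-0.15). It turned for Utf1 without KO replicate 2 (0.014), and for Dppa3 without het replicate 2 (-0.027) or KO replicate 3 (-0.086). Leaving out both libraries turned Prdm14 (0.36), Tfap2c (-0.11) and Utf1 (0.013). The Lin28a to Lin28b difference of 0.28 ran from 0.045 without het replicate 1 and 0.083 without KO replicate 2 to 0.46 without KO replicate 1. Same-numbered libraries of the genotypes deviated together in 1 of 3 pairs (correlations of 0.14, -0.16 and -0.04). With 3 libraries per genotype this cannot settle whether the numbers pair them. With the replicate block the number of members called was 0, limma gave Lin28a an adjusted p of 0.449, the Lin28a to Lin28b difference was 0.28 (exact sign-flip p = 0.25, the smallest that 3 pairs allow, with KO higher in 3 of 3 pairs), 0 TE copies were called, and the calls over all genes went from 123 to 69. Over all genes the calls differed from 123 in every alternative. They numbered 75 with a pseudocount of 0.1, 189 with one of 10, 38 with edgeR with the block and 465 with DESeq2. Leaving out 1 library gave 18 to 112, and leaving out het replicate 3 and KO replicate 2 together gave 83. Other filters and scalings, limma without trend and edgeR without the block gave 96 to 163.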

Other observations

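In het replicate 3 and KO replicate 2, some genes of the LIN28 and let-7 list were at their highest. Both libraries held the top values of 8 of the 20 genes (40.0%), among them Tut4, Igf2bp2, Trim71 and Igf1r. In the wider pluripotency list the count was 6 of 25 (24.0%), with Sall1, Klf2, Klf4, L1td1, Tfap2a and Fgf8, and among the 10 members it was Sox2 alone. Of all 26005 tested genes 14.6% had this pattern, of the 10 germ cell markers 0 and of the 9 Sertoli cell markers 1 (11.1%). Trim71, a stem cell ubiquitin ligase gene and let-7 target, had 7141 normalized counts in het replicate 3 and 10065 in KO replicate 2, against 4403 to 5417 in the other 4 libraries. Other genes of the LIN28 and let-7 list differed: Lin28b, Igf2bp1 and Nras were at their lowest in het replicate 3, as was Lin28a. The pattern of shared top values was noticed after the values were seen and crosses the genotypes. The same libraries had the lowest summed germ cell markers, and the part of that in the pattern was not tested.

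Nanos3, an RNA-binding protein gene that protects primordial germ cells, had 488 normalized counts in KO replicate 2 and 56.6 to 94.7 in the other 5 libraries. Trim71 and Nanos3 were chosen after their values were seen.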
